A study of Mus musculus with 4 samples.

Results

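The meningeal mesenchyme transcription factors Foxc1, Foxc2, Foxd1, Zic1, Zic2, Zic4, Tbx18, Six2 and Eya2 were looked up by gene symbol in a matrix of RNA levels from mouse dorsal root ganglia, which hold the cell bodies of sensory neurons. Of these 9 names, 8 had a row among the 14405 of the matrix, and Six2 was not analysed here. The ganglia came from 10-week-old mice labelled as a mixed strain, with 2 wild type and 2 mutant samples measured by bulk RNA sequencing. The mutants had the genotype Prdm12-/Fl; AvilCreERT2/+, that is, 1 null and 1 floxed allele of Prdm12 and 1 copy of a tamoxifen-inducible Cre. That Cre is driven by Avil, a gene of sensory neurons. Nothing in the sources used here says whether the wild types carried Cre or a floxed allele, or whether and when tamoxifen was given. The title of the series contrasts loss of Prdm12 in development with its loss in mature nociceptors, the pain-sensing neurons that need this transcription factor to form. The labels do not say that replicates came from separate animals, so their spread may be technical in part.

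The meninges are the connective tissue sheets around the brain and spinal cord, and they continue over the nerve roots and ganglia. Their fibroblasts arise from neural crest and mesoderm and are layered into dura, arachnoid and pia. FOXC1 and FOXC2 are forkhead DNA-binding proteins of mesenchyme, and loss of FOXC1 in the mouse impairs formation of the meninges over the forebrain. ZIC1, ZIC2 and ZIC4 are zinc finger proteins of the dorsal neural tube and of the mesenchyme next to it. TBX18 is a T-box factor of mesothelium and of mural cells, the contractile cells around vessels. EYA2 is a co-activator that works with homeodomain partners such as Six2, and FOXD1 is a forkhead factor of stromal progenitors. None of these genes marks meninges alone, and bulk RNA does not show which cells of the sample carried them.

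The question was which of the 8 factors were lower in both mutant libraries and which in 1. A factor was counted as lower in both when both mutant values lay below both wild type values. The choice of factors rested on this same contrast, so their values are a description and carry no test. By this count 6 factors were lower in both mutants, Zic2, Zic4, Zic1, Foxc1, Foxc2 and Eya2. Another 2, Foxd1 and Tbx18, were lower in mutant 2 only, and 0 were lower in mutant 1 only. Over the 14040 genes tested, 19.6% were lower in both mutants, 17.2% in mutant 2 only and 17.8% in mutant 1 only, while 12.5% were higher in both. These shares are the background of the counts, and nothing further is read from them for factors chosen on the contrast.

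Promoter sequence is shown for 4 of the factors, Zic1 and Foxc1, which were lower in both mutants, and Foxd1 and Tbx18, which were lower in 1. The RefSeq table for GRCm38.p6, the assembly of mm10, matched 6 of the 9 names. Each line gives the 200 bases from 250 to 51 bases before the RefSeq transcript start, 5′ to 3′ on the gene's strand. Capitals mark matches on either strand to CCAAT (the CCAAT box), TATAAA (the TATA box), CACGTG (an E-box), GGGCGG (a GC box), CAGCAGG (a ZIC core) or GTAAACA (a forkhead core).
Zic1: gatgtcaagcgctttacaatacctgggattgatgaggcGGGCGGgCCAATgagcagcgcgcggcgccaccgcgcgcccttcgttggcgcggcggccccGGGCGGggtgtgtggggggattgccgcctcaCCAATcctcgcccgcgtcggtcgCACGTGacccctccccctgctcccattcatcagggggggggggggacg
Foxc1: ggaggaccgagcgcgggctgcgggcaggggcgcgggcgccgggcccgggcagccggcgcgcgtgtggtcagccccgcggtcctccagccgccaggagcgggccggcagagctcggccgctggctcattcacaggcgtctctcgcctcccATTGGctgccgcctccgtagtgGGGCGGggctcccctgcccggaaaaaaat
Foxd1: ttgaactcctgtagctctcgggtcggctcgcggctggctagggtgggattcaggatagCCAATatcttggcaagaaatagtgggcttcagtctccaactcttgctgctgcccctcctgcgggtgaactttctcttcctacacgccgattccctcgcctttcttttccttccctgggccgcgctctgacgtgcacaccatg
Tbx18: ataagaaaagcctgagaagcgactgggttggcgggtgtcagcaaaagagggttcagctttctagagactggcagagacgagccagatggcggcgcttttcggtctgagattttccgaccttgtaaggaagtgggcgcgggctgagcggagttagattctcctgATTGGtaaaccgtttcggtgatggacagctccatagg
The Zic1 window (chr9:91365819-91366018, minus strand) is 71.5% G and C and the Foxc1 window (chr13:31806396-31806595, plus strand) 76.5%. The Foxd1 window (chr13:98353995-98354194, plus strand) is 57.0% G and C and the Tbx18 window (chr9:87731311-87731510, minus strand) 53.5%. Each of these 4 windows held a CCAAT box, which 28.4% of the 32851 windows of this length in the table held. In Zic1 its matches begin 205 and 121 bases before the start, in Foxc1 101, in Foxd1 192 and in Tbx18 87. GC boxes stood in Zic1 and Foxc1 and not in the other 2 (24.6% of all windows), and the E-box in Zic1 alone of the 4 (4.34%). Neither the ZIC core (6.82% of all windows) nor the forkhead core (2.58%) occurred in these 4 windows, nor did the TATA box (9.14%). The window of Zic4, which was lower in both mutants, held none of the motifs and was 43.5% G and C. Its letters are not printed, since it overlaps an annotated exon of Zic4. The Tbx18 window overlaps an annotated exon of D030062O11Rik, a gene on the other strand. Zic2, Foxc2 and Eya2 had no window, so whether these features follow the split of the factors was not tested. A match is a description of the letters and no evidence of binding.

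The targeted gene was low in both mutants. Prdm12 read 7.58 and 10.7 FPKM (fragments scaled to transcript length and library size) in wild type 1 and 2, against 1.05 and 1.495 FPKM in mutant 1 and 2. Libraries differed in more than genotype. The summed FPKM of sensory neuron markers was 3601 and 5015 in the wild types and 3937 and 6687 in the mutants, and that of skeletal muscle markers 247, 2026, 111 and 4211 in the same order. Xist, the RNA of the inactive X chromosome, measured 21.1 FPKM in wild type 2 and no more than 0.0295 FPKM in the other 3 libraries, which had the Y-linked Ddx3y at 11.3 to 18.4 FPKM. FPKM hold no counts, so the sequencing depth is unknown. With 2 samples against 2, an exact two-sided permutation test cannot give a p below 0.333. The limma fit called 0 of 14040 genes (0%) at an adjusted p under 0.05, and at an unadjusted p under 0.05 there were 422 lower and 190 higher genes.

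The ZIC genes differed most between the groups. Zic2 measured 40.8 and 37.0 FPKM in wild type 1 and 2, against 19.6 and 10.4 FPKM in mutant 1 and 2. Its means were 38.9 ± 2.68 and 14.99 ± 6.51 FPKM (SD, n = 2 each), 2.59-fold lower in the mutants, with a difference of -1.38 on the log2(FPKM + 1) scale. Mutant 1 held 50.4% and mutant 2 26.7% of the wild type mean, and the groups stood well apart. Zic4 measured 7.20 and 6.02 FPKM in the wild types against 3.46 and 2.11 FPKM in the mutants. That is 6.61 ± 0.833 against 2.79 ± 0.952 FPKM (SD, n = 2 each), or 52.3% and 32.0% of the wild type mean in the 2 mutants, with no overlap. Zic1 measured 29.0 and 33.3 FPKM in the wild types against 19.6 and 11.8 FPKM in the mutants. Its means were 31.2 ± 2.99 and 15.7 ± 5.54 FPKM (SD, n = 2 each), 1.98-fold lower in the mutants, and both mutants lay below both wild types. Of the 8 factors, Zic1 alone was higher in wild type 2 than in wild type 1.

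In the authors' deposited table of 150 genes, Zic2 and Zic4 were the 2 factors listed. By its label the table was cut by a minimum FPKM, a minimum log2 fold change and a false discovery rate. By the ratio of group means every other factor lay under that fold cutoff, from Tbx18 at 1.10-fold to Zic1 at 1.98-fold lower. Each was therefore missing whatever its q, which is unknown. The authors' deposited table gives Zic2 a log2 change of -1.37 with q = 0.00742, and Zic4 a log2 change of -1.25 with q = 0.00742. Of its 150 genes 129 were lower in the mutants, 0.896% of the rows of the matrix. Both ZIC genes stood among the lower ones.

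ZIC genes lie in pairs in the mouse genome, which gives each of these 3 a close neighbour. In the mm10 annotation of GENCODE M21, Zic1 (ENSMUSG00000032368.14) lies on chromosome 9 at 91358058 to 91365810 on the minus strand. Zic4 (ENSMUSG00000036972.14) lies beside it at 91362413 to 91389348 on the plus strand, and its longest transcripts overlap Zic1. Their RefSeq start sites are 3204 bases apart, and the locus the authors' deposited table gives for Zic4 begins at 91368971, outside Zic1. Since no source used here gives the strandedness of the libraries, reads in the overlap cannot be told apart. Zic2 (ENSMUSG00000061524.8, chromosome 14, 122475435 to 122479852, plus strand) has Zic5 as its neighbour, which starts 9758 bases away on the other strand. Zic5 measured 2.13 and 1.54 FPKM in the wild types against 1.22 and 0.635 FPKM in the mutants, lower in both as Zic2 was (limma adjusted p = 0.994). In both neighbouring pairs, each gene was thus lower in both mutants and lowest in mutant 2.

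The FOXC genes came next in size. Foxc1 (chromosome 13, 31806633 to 31812476, plus strand) measured 33.3 and 31.1 FPKM in the wild types against 22.4 and 12.2 FPKM in the mutants. Its means were 32.2 ± 1.57 and 17.3 ± 7.18 FPKM (SD, n = 2 each), 1.86-fold lower in the mutants, and the groups did not overlap. Foxc2 (chromosome 8, 121116171 to 121118895, plus strand) measured 46.3 and 38.2 FPKM in the wild types against 30.2 and 16.3 FPKM in the mutants. It was 1.82-fold lower by the means, 42.3 ± 5.71 against 23.2 ± 9.84 FPKM (SD, n = 2 each), again without overlap. The paralogues kept almost the same shares of wild type, Foxc1 69.4% and 37.9% and Foxc2 71.4% and 38.5% in mutant 1 and 2. The forkhead gene Foxl1, which lies 9045 bases from Foxc2, measured 1.25 and 1.19 FPKM in the wild types against 0.666 and 0.732 FPKM in the mutants (limma adjusted p = 0.994). Foxl1 was about equal in the 2 mutants, where Foxc2 differed 1.86-fold between them.

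Eya2, Foxd1 and Tbx18 showed little or no reduction in mutant 1. Eya2 (chromosome 2, 165595032 to 165771727, plus strand) measured 45.2 and 38.9 FPKM in the wild types against 38.8 and 17.8 FPKM in the mutants. Mutant 1 lay just under wild type 2, at 92.2% of the wild type mean, so Eya2 stood barely inside the count of factors lower in both. After rescaling by median ratios or quantile normalization it overlapped, and 5 factors were lower in both. Foxd1 (chromosome 13, 98354242 to 98359305, plus strand) measured 38.5 and 31.2 FPKM in the wild types against 32.8 and 15.9 FPKM in the mutants. It stood just outside the count, because mutant 1 lay between the wild types. Mutant 2 was at 42.2% of the wild type mean for Eya2 and at 45.6% for Foxd1, close to its share for the FOXC genes.

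Tbx18 (chromosome 9, 87702800 to 87731260, minus strand) differed least. It measured 3.46 and 2.92 FPKM in the wild types against 3.61 and 2.22 FPKM in the mutants. The means were 3.19 ± 0.387 and 2.91 ± 0.983 FPKM (SD, n = 2 each). Mutant 1 was the highest library for this gene and mutant 2 the lowest. Its log2 difference was -0.12, and 0.14 without mutant 2. Mural cell markers, of a cell type that also expresses Tbx18, had a median log2 difference of 0.07, with 2 of 12 lower in both mutants and 1 higher. The shares over all genes tested were 19.6% lower and 12.5% higher. Their most abundant members were Vtn, with 297 and 257 FPKM in the wild types against 129 and 114 FPKM in the mutants (limma adjusted p = 0.306), and Tagln, with overlapping groups. Leaving out wild type 1 raised the mural count to 6, and leaving out wild type 2 or mutant 1 raised it to 4, where a single mutant left is counted as lower if it lies below both wild types. A left-out sample loosens this count for all genes too. Without mutant 1, the 17.2% of all genes lower in mutant 2 only join the 19.6% lower in both. No such share is given for a left-out wild type, so nothing is read from those counts. After either rescaling the mural count was 1. Leaving out wild type 1 turned the median to -0.05, and leaving out mutant 1 turned it to -0.04.

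**Figure D1:**
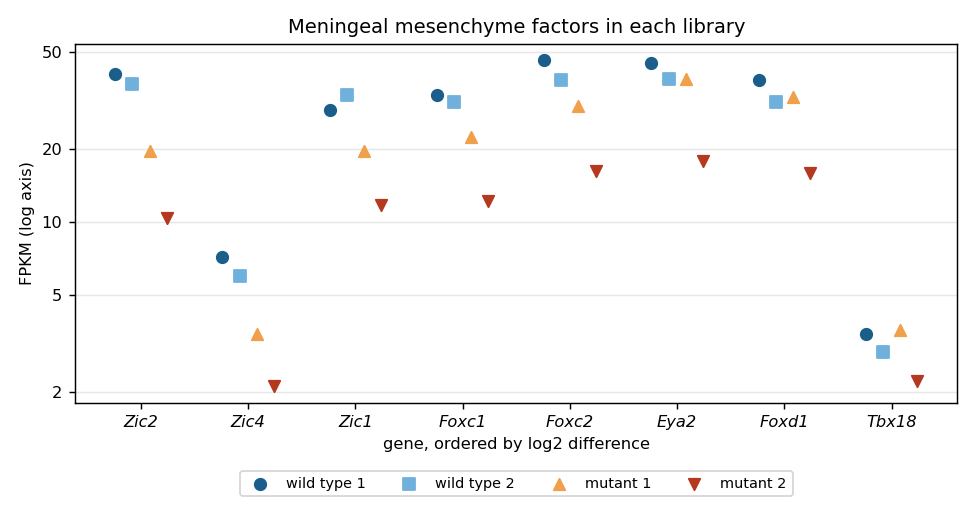
FPKM (log axis) of the 8 factors in each of the 4 libraries, 1 symbol a library, genes ordered by their log2 difference. Mutant 2 is the lowest library for every gene, from 2.11 FPKM in Zic4 to 17.8 FPKM in Eya2, and mutant 1 lies below both wild types for 6 of the 8.

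In wild type the order of the levels was Foxc2, Eya2, Zic2, Foxd1, Foxc1, Zic1, Zic4 and Tbx18 (FPKM are per length, so genes can be compared). From Foxc2 at a mean of 42.3 FPKM to Zic1 at 31.2 FPKM, each neighbour in the order overlapped the next across the 2 wild type libraries. Zic4 stood apart below Zic1, and Tbx18 below Zic4. In the mutants Zic4 and Tbx18 overlapped.

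All 8 factors had their lowest value in mutant 2, which was the lowest library for 31.3% of the genes tested. Between the 2 mutants the factors differed 1.63-fold for Tbx18 to 2.18-fold for Eya2, and between the 2 wild types 1.07-fold for Foxc1 to 1.24-fold for Foxd1. The median log2 difference over the 8 was -0.91, beside -0.0048 over all genes tested. It was -0.49 without mutant 2 and -1.30 without mutant 1. The spread between the mutants was therefore larger than that between the wild types for each factor, and the size of the difference depended on which mutant was taken.

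Pan-fibroblast markers had their lowest sum in mutant 2. The summed FPKM of 12 pan-fibroblast markers, collagens and matrix genes, was 7606 and 6110 in the wild types and 7659 and 4506 in mutant 1 and 2. Dcn, the proteoglycan decorin, was the most abundant of them, at 3462, 3347, 3709 and 1901 FPKM, followed by the collagen gene Col1a2 at 802, 426, 769 and 411 FPKM. Without Dcn the markers summed to 4144 and 2763 FPKM in the wild types and to 3950 and 2605 FPKM in the mutants, so wild type 2 and mutant 2 then lay close together. Of the 12 markers 8 were lowest in mutant 2, while Fstl1 was highest there at 473 FPKM, and Col1a1, Col3a1 and Mfap5 were lowest in wild type 2 (these 4 were named after their values were seen). Of the 12 markers 2 were lower in both mutants and 0 higher, with a median log2 difference of -0.23, which was -0.01 without wild type 1, 0.10 without mutant 2 and -0.51 without mutant 1. Leaving out wild type 2 gave a count of 5, and leaving out mutant 1 gave 8. Without mutant 1 the count takes in genes lower in mutant 2 only (17.2% of all genes), beside those lower in both (19.6%). No share of all genes is given for a left-out wild type, so nothing is read from the count of 5. In the same library, markers of other cells were high. Schwann cell and satellite glia markers summed to 14973 and 13928 FPKM in the wild types and to 14987 and 26103 FPKM in the mutants, and adipocyte markers to 585, 1056, 335 and 3063 FPKM. In bulk samples, fewer cells of a type and less RNA per cell cannot be told apart.

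Divided by the pan-fibroblast sum of their own library, most factors were nearly equal in the 2 mutants. Zic4 was at 0.946 and 0.985 FPKM per 1000 FPKM of these markers in the wild types against 0.452 and 0.469 in the mutants. Zic2 was at 5.36 and 6.05 in the wild types against 2.56 and 2.31 in the mutants, and Zic1 at 3.82 and 5.44 against 2.57 and 2.62, in the same unit. On this scale the ZIC genes stood between 40.4% and 56.6% of the wild type mean in either mutant. Foxc1 was at 4.38 and 5.09 in the wild types against 2.92 and 2.71 in the mutants, and Foxc2 at 6.09 and 6.26 against 3.94 and 3.61. Foxd1, at 5.06 and 5.10 against 4.28 and 3.52, now lay below both wild types in both mutants, as did Eya2 at 5.94 and 6.37 against 5.06 and 3.94. Tbx18, at 0.456 and 0.477 against 0.471 and 0.492, was not lower in either mutant.

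On this scale 7 of the 8 factors were thus lower in both mutants, where 4.75% of all genes tested were. With Dcn left out of the sum the count was also 7 (6.42% of all genes), as it was with the geometric mean of the markers in its place (3.27%). The near equality of the mutants depended in part on Dcn. Mutant 1 over mutant 2 was 1.08 for Foxc1, 1.11 for Zic2 and 1.28 for Eya2 with the sum. It was 1.21, 1.24 and 1.44 without Dcn, and 1.09, 1.12 and 1.30 with the geometric mean. For Zic4 and Tbx18 it was 1.08 and 1.07 without Dcn. The median log2 ratio of all genes was 0.21 with the sum, 0.07 without Dcn and 0.29 with the geometric mean. Divided by the sum of sensory neuron markers the count was 4 (11.9% of all genes). There mutant 1 no longer lay below wild type 2 for Foxc2 and Eya2, as the sum was higher in wild type 2 than in mutant 1. These ratios use the same libraries and the same contrast, and carry no test.

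**Figure D2:**
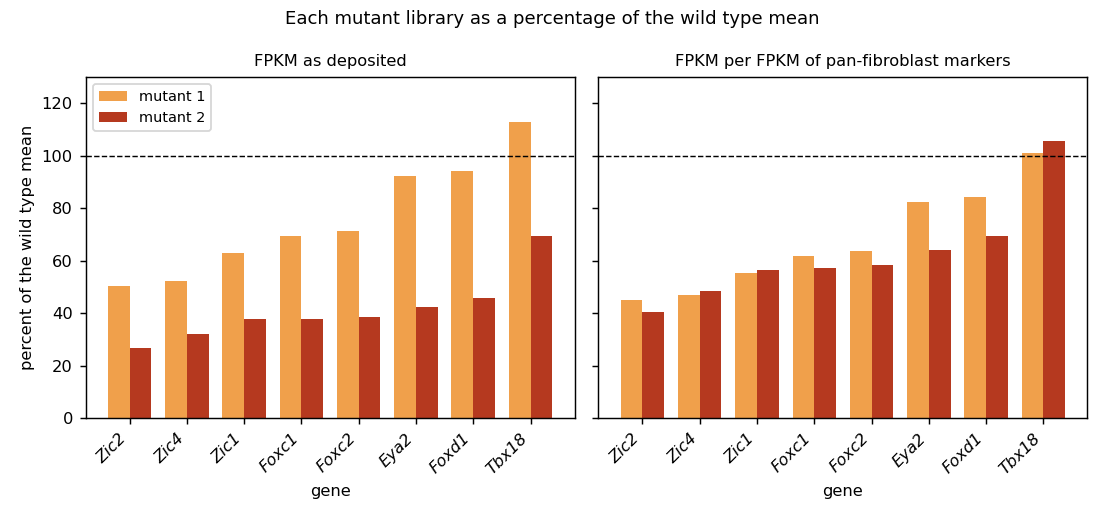
Bars give each mutant library as a percentage of the wild type mean for the 8 factors, from FPKM as deposited (left) and after division by the summed FPKM of 12 pan-fibroblast markers of the same library (right), with the dashed line at the wild type mean. On the left mutant 2 lies under mutant 1 for every gene, and on the right Zic2, Zic4, Zic1, Foxc1 and Foxc2 lie between 40.4% and 63.8% in both mutants while Tbx18 lies at 101% and 105%.

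Genes that arachnoid and pia fibroblasts express had a larger median difference than the factors. Of 19 such markers, 17 were lower in both mutants and 0 higher, with a median log2 difference of -1.30. Over all genes tested, 19.6% were lower in both and 12.5% higher. None of the 19 passed the limma test (smallest adjusted p = 0.175), and 14 of them are in the authors' deposited table. The list was written with earlier results of these libraries known, so it is not independent evidence of the direction. Ptgds, the lipocalin-type prostaglandin D synthase, measured 13098 and 13055 FPKM in the wild types against 3201 and 3025 FPKM in the mutants. Igf2, an insulin-like growth factor, measured 357 and 248 FPKM in the wild types against 121 and 89.9 FPKM in the mutants. Without Ptgds the markers summed to 1469 and 1114 FPKM in wild type and to 661 and 434 FPKM in the mutants.

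That last sum was itself lower in both mutants, so dividing by it raises all genes there against wild type, more in mutant 2 than in mutant 1. The pan-fibroblast sum did so to a smaller extent, with a median log2 ratio of 0.21 over all genes. On that scale 0 of the 8 factors were lower in both mutants, where 0.434% of all genes tested were. The median log2 ratio was 0.31 over the 8 factors and 1.25 over all genes, and nothing about the factors is read from this divisor.

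Other fibroblast layers lay between. Of 10 dura and border markers tested 4 were lower in both mutants and 1 higher (median log2 difference -0.49), with the matrix gene Mgp at 1043, 1449, 870 and 642 FPKM (wild types, then mutants). Its companion by abundance, the matrix gene Smoc2, overlapped between the groups at 288, 253, 300 and 149 FPKM. Of 14 nerve sheath markers 5 were lower in both and 1 higher (median -0.33), with the Wnt antagonist gene Sfrp4 at 332, 149, 259 and 111 FPKM and Lypd2 at 122, 125, 120 and 56.8 FPKM. Endothelial markers had a median of -0.05, with 2 of 12 lower and 1 higher, Ly6c1 and Egfl7 both overlapping. Of these markers 0 passed the limma test. Beside these counts, 19.6% of all genes tested were lower in both mutants and 12.5% higher. Without wild type 2 or without mutant 1, the dura and border count was 7. The nerve sheath count was 8 with wild type 2 left out, 10 with mutant 1 left out and 3 after either rescaling. Leaving out wild type 1 gave an endothelial count of 4, and leaving out mutant 1 gave 7. Each left-out sample loosens these counts for all genes too. Without mutant 1, the 17.2% of all genes lower in mutant 2 only join the 19.6% lower in both. No such share is given for a left-out wild type, so nothing is read from those counts. Without mutant 2 the dura and border median was -0.12 and the nerve sheath median -0.0025. Without mutant 1 they were -0.81 and -0.55, and the endothelial median -0.18. The nerve sheath median was -0.10 without wild type 1. The part of cell makeup in the values of the factors was not tested.

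**Figure D3:**
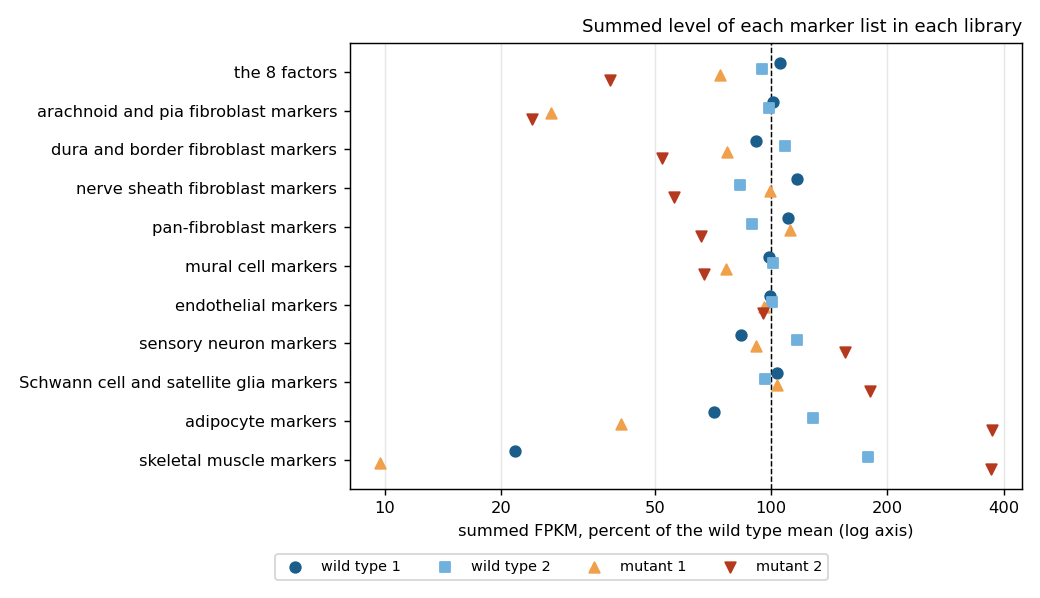
Summed FPKM of the 8 factors and of each marker list in the 4 libraries, as a percentage of the wild type mean (log axis, dashed line at the wild type mean). The arachnoid and pia sum, which is mostly Ptgds, is low in both mutants. Dura and border, mural and, slightly, endothelial sums are also lower in both. The pan-fibroblast sum is lowest in mutant 2, where without Dcn it lies close to wild type 2. Skeletal muscle and adipocyte markers are highest in mutant 2 and lowest in mutant 1.

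Relatives of the factors had a smaller median difference. The factors were chosen on this same contrast, which partly sets that order, so nothing is read from it. Of 66 listed relatives and other mesenchymal transcription factors, 38 were tested, with a median log2 difference of -0.19. Of the 38, 13 were lower in both mutants, 0 higher and 0 past the limma test. For this and the list counts that follow with all libraries, the share of all genes tested was 19.6% lower and 12.5% higher. With mutant 1 left out, the 17.2% lower in mutant 2 only join the 19.6%. With mutant 2 left out, the 17.8% lower in mutant 1 only join them instead. No such share is given for a left-out wild type, so nothing is read from those counts. Among forkhead relatives 3 of 7 were lower in both mutants (median -0.39). The most abundant of them, Foxs1, measured 33.4, 27.6, 44.4 and 28.7 FPKM (wild types, then mutants), and Foxo1, an insulin-responsive factor, 15.1, 14.97, 16.6 and 10.4 FPKM, both with overlapping groups. Among ZIC and GLI relatives 1 of 5 was lower in both (median -0.25), namely Zic5, while Glis2 and the hedgehog effector Gli1 overlapped. Gli1 was highest in mutant 1, at 17.1 FPKM. Without mutant 1 the forkhead count was 5 and the ZIC and GLI count 5, and without wild type 2 the latter was 3. Without mutant 2 the forkhead median was -0.09 and the ZIC and GLI median -0.08. The ZIC and GLI median was -0.62 with mutant 1 left out, -0.45 with wild type 2 left out and -0.13 with wild type 1 left out.

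In the network of homeodomain partners, Eya and Dach relatives, which acts with Eya2, 3 of 6 were lower in both mutants (median -0.06). Eya1, named after its values were seen, measured 5.85 and 4.80 FPKM in the wild types against 2.997 and 2.19 FPKM in the mutants, 2.05-fold lower (log2 difference -0.82, limma adjusted p = 0.660). Unlike Eya2, Eya1 was well below both wild types in mutant 1. Six5 overlapped, at 8.07, 5.45, 8.49 and 6.04 FPKM. Of 4 T-box relatives tested, Tbx15 was lower in both, at 9.66, 9.45, 9.24 and 4.85 FPKM, and Tbx2 overlapped (median of the 4 -0.01). After either rescaling Tbx15 overlapped as well, and without mutant 2 the T-box count was 2. The T-box median was 0.24 without mutant 1, and that of the EYA2 network ran from -0.20 without wild type 2 to -0.11 without wild type 1.

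Of 16 other mesenchymal transcription factors 5 were lower in both mutants (median -0.22). The count was 11 without wild type 2 or without mutant 1, and 3 after quantile normalization. The median ran from -0.41 without mutant 1 to -0.07 without wild type 1. The nuclear receptor gene Nr2f2, at 43.0, 47.5, 43.7 and 26.7 FPKM, and the homeobox gene Meox2, at 21.4, 23.5, 24.3 and 14.3 FPKM, were low in mutant 2 only. Osr1, a zinc finger factor of mesenchyme named after its values were seen, measured 32.2 and 25.4 FPKM in the wild types against 12.4 and 9.57 FPKM in the mutants. It was 2.62-fold lower (log2 difference -1.31 with a standard error of 0.199, limma adjusted p = 0.332), close to Zic2 in size. The authors' deposited table gives Osr1 a log2 change of -1.39 with q = 0.00742, the q it also gives Zic2, Zic4 and Myh4. Twist1, also named after its values were seen, measured 23.6 and 20.7 FPKM in the wild types against 19.3 and 12.6 FPKM in the mutants (limma adjusted p = 0.994).

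**Figure D4:**
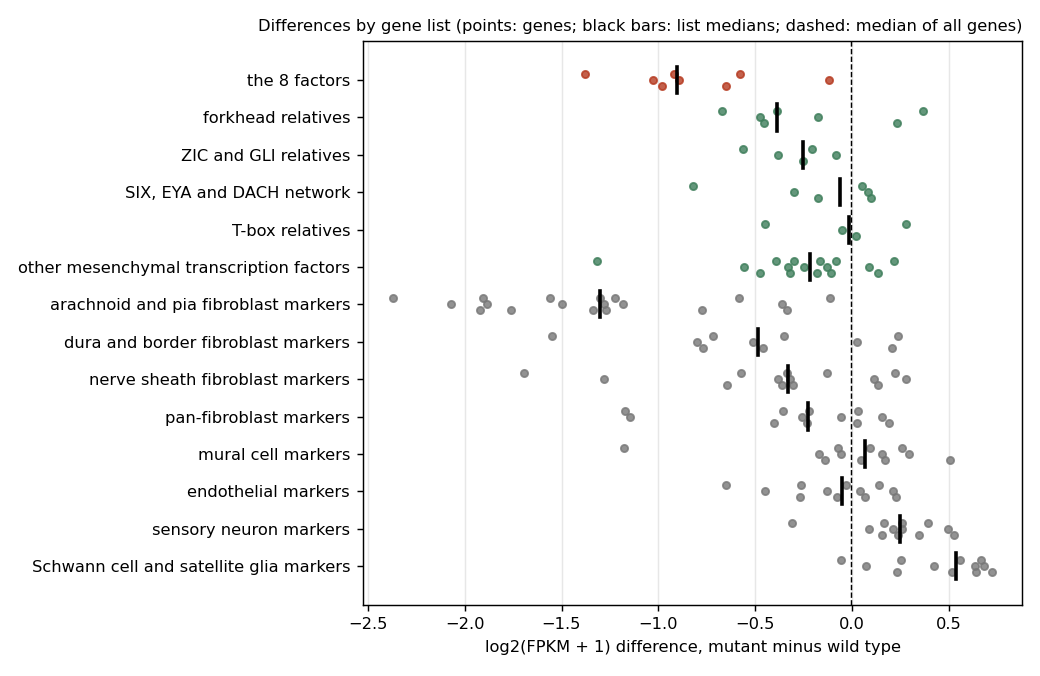
Each point is 1 gene's difference in log2(FPKM + 1), mutant minus wild type, for the 8 factors (red), lists of their relatives and other mesenchymal factors (green) and cell type markers (grey), with black bars at list medians and a dashed line at the median of all genes. The median of the 8 factors, -0.91, lies between that of arachnoid and pia markers, -1.30, and those of the relatives, -0.39 to -0.01. The factors were chosen on this contrast, which partly sets that order.

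The factors were also compared with each other by their pattern over the 4 libraries, as the Euclidean distance between log2(FPKM + 1) values centred on each gene's mean. The closest pairs were Foxd1 with Eya2, at a distance of 0.11, and Foxc1 with Foxc2, at 0.13. The farthest were Zic2 and Tbx18, at 1.28. Among 13780 genes whose mean over the libraries reached 1 FPKM, the 10 nearest to the median pattern of the factors were Spink1, Esm1, Tmod3, Klf12, H19, Slc38a2, Serpinb6c, Cped1, Ocln and Pgm5, at distances of 0.05 to 0.16. Of these, H19 is an imprinted non-coding RNA, Slc38a2 an amino acid transporter gene and Ocln the gene of the tight junction protein occludin. H19 measured 185 and 161 FPKM in the wild types against 114 and 68.2 FPKM in the mutants.

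For 7 single factors the nearest gene was Slc38a2 for Foxc1, the vitamin C transporter gene Slc23a2 for Foxc2, Srgn for Foxd1, Tpsab1 for Zic1, Arhgap29 for Zic4, Efna2 for Tbx18 and the prostacyclin synthase gene Ptgis for Eya2. Arhgap29 measured 34.97 and 29.7 FPKM in the wild types against 18.5 and 12.98 FPKM in the mutants. With 4 libraries many genes lie close to any pattern, and the distances are a description.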

How the data were processed

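RNA was measured in 2 wild type and 2 mutant samples, grouped and numbered by their titles. The authors deposited FPKM values for 14405 genes and a list of 150 genes giving group FPKM, log2 fold change, p-value and q-value. By its label, that list was cut on FPKM, on the size of the log2 fold change and on the false discovery rate. The submitters' processing notes name mm10, Cufflinks 2.2.1, TopHat2 2.1.2 and CASAVA, with roles, settings and library scaling not given in the sources used here. Tested on the values, each gene had at least 1 FPKM in some sample. FPKM carry no depth, so no counting interval is given.

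Values of log2(FPKM + 1) were tested with limma 3.58.1 (R 4.3.3, variance trend on the mean) over 14040 genes with a group mean of at least 1 FPKM, adjusted by Benjamini and Hochberg at 0.05. The fit was also run on simulated data whose samples varied independently, unlike same-numbered samples here, and nothing is read from that run. Fold values are ratios of group mean FPKM, and the log2(FPKM + 1) scale understates changes of low genes. No set test was run.

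The factors and all lists, 5 of relatives and 13 of cell types, were chosen with earlier results of these data known. Named genes are the factors, Prdm12, the 2 most abundant tested members of each list, the 10 genes nearest to the median pattern and the nearest to each factor, unless said otherwise. Some genes that this rule names are not reported here. Avil, which drives the Cre, measured 78.4 and 124 FPKM in the wild types against 102 and 164 FPKM in the mutants.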

Additional observations from a re-analysis of the deposited data

How the results depend on the processing

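Alternatives were other pseudocounts (0.1 and 5), no minimum or a minimum of 5 FPKM, rescaling by median ratios, quantile normalization, a constant variance prior, leaving out each sample, a replicate block and division by marker sums. The geometric mean, the sum without Dcn and the arachnoid and pia divisor were chosen after seeing the data. The median log2 difference of the 8 factors ran from -1.30 without mutant 1 to -0.49 without mutant 2, and the number lower in both from 6 to 8 with each sample left out (with 1 mutant left, lower in both means that it lies below the wild types). Divided by arachnoid and pia markers without Ptgds, that median was 0.31 and the number lower in both 0, beside 1.25 and 0.434% for all genes. Without wild type 1, limma called 5 genes, and with any other sample left out 0. With a replicate block it called 61 genes in place of 0, and 1474 in place of 612 at an unadjusted p under 0.05. The numbers give only 2 pairs and no label ties them to a shared source. Same-numbered samples deviated together across genes (r = 0.481), which over 2 pairs is a hint only, and the samples are taken to share no more than a number. A left-out sample leaves 1 library for its group, assumed to vary like the other group. It also loosens the count of genes lower in both, for every list and for all genes. Without mutant 1, the 17.2% of all genes lower in mutant 2 only join the 19.6% lower in both. Without mutant 2, the 17.8% lower in mutant 1 only join them instead. No such share is given here for a left-out wild type. A minimum of 5 FPKM tested fewer genes and left 0 ZIC and GLI relatives, 1 endothelial marker and 3 other mesenchymal factors lower in both. The median of all genes moved by under 0.1 in the settings on FPKM, and divided by marker sums it was -0.28 (sensory neuron) to 1.25.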

Other observations

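Lists of tissues next to the ganglia gave a few further values. Of 12 spinal cord markers 3 were in the matrix. The astrocyte genes Gfap and Aqp4 were at 2.47 to 6.10 FPKM and at 0.898 to 1.15 FPKM over the 4 libraries, with log2 differences of -0.02 and 0.11. Gjb6, the gene of connexin 30, which meningeal cells also express, measured 64.0 and 50.5 FPKM in the wild types against 20.8 and 14.4 FPKM in the mutants. Its log2 difference was -1.66 (limma adjusted p = 0.288). Of 4 choroid plexus markers 3 were lower in both mutants (median log2 difference -0.70), where 19.6% of all genes tested were lower and 12.5% higher. The count was 2 after quantile normalization, and the median was -0.33 with a pseudocount of 5. The potassium channel gene Kcnj13 measured 35.4, 29.7, 16.2 and 10.1 FPKM (wild types, then mutants), and Ttr, the transthyretin gene, 7.58, 4.34, 3.54 and 4.24 FPKM. Of 7 bone and cartilage markers 1 was lower in both and 2 were higher, with Spp1, the osteopontin gene, overlapping at 306, 281, 216 and 336 FPKM, and Comp, a cartilage matrix gene, at 16.7, 16.2, 11.8 and 7.75 FPKM. Of these genes 0 passed the limma test.

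Lists of cells within or around the ganglia gave other values. Sensory neuron markers had a median log2 difference of 0.25, which turned to -0.13 with mutant 2 left out and to -0.02 with wild type 1 left out, and stood at 0.56 with mutant 1 left out, with Uchl1 at 1593, 1983, 1636 and 2433 FPKM and Tubb3 at 672, 775, 777 and 1079 FPKM. In the Schwann cell and satellite glia list 6 of 12 were higher in both mutants and 0 lower (1 without either wild type). Among all genes tested, 12.5% were higher in both and 19.6% lower. Apoe, of the glial list, was at 4089, 5474, 4315 and 4787 FPKM. The glial list had a median of 0.53, and 0.16 without mutant 2. Skeletal muscle and adipocyte markers had medians of -0.01 and 0.49, or -2.47 and -1.16 without mutant 2, and differed more within than between groups. Without mutant 2, 9 adipocyte and 10 skeletal muscle markers were lower in mutant 1 than in both wild types. Over all genes tested, 17.8% were lower in mutant 1 only and 19.6% in both mutants. Acta1 was at 76.7, 585, 32.4 and 1027 FPKM, Tnnt3 at 40.1, 417, 18.5 and 855 FPKM and the adipocyte gene Fabp4 at 249, 484, 153 and 1328 FPKM. Values of Cfd, the adipsin gene, were 184, 202, 96.2 and 757 FPKM.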
